A study of Mus musculus with 12 samples.

Results

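The interstitial collagens followed here are 10 genes: Col1a1, Col1a2, Col3a1, Col5a1 and Col5a2 of the fibrillar types I, III and V, Col6a1, Col6a2 and Col6a3 of type VI, and Col14a1 and Col15a1. They were taken as the probe sets whose symbol in the platform annotation is 1 of these 10. All 10 were found, each by 1 probe set with a single symbol, among 22206 probe sets on the array, which stand for 19505 named genes. The samples are whole kidneys of mice killed at 16 weeks of age, read on Clariom S arrays, in 4 groups of 3. Wild type mice received vehicle. The other 3 groups were Alport mice hemizygous for the COL4A5 nonsense allele G5X, which all of them carried, and received vehicle, losartan or metformin. Alport disease is a hereditary nephritis caused by defects in type IV collagen of the basement membrane. Losartan is an angiotensin II receptor blocker and metformin a glucose-lowering biguanide. In the drinking water losartan was at 125 µg/mL first and 250 µg/mL afterwards. For metformin these steps were 2.5 and 5 mg/mL. The first dose ran from week 6 to week 11 and the later one from week 12, with an end at week 20 that lies past the stated age of 16 weeks. The labels also call losartan co-administered without naming the partner, and the groups used here follow the sample titles. They do not say whether the 3 samples of a group came from separate mice or litters, so each test measures only how far these samples vary, and that variation may be technical.

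Fibrillar collagens are secreted as procollagen chains that fold into triple helices, are trimmed outside the cell and are cross-linked into fibrils. Types I and III form the bulk of scar matrix in a fibrotic kidney, and type V starts and narrows their fibrils. Type VI assembles into beaded microfilaments around cells, collagen XIV sits on the surface of fibrils, and collagen XV is a multiplexin found at the border between basement membrane and interstitium. In the kidney these chains come mainly from interstitial fibroblasts, pericytes and the myofibroblasts that arise with injury, and they build the interstitium rather than the filter, whose own collagen is type IV.

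The promoters of 3 members are shown as examples of differing upstream sequences. All 3 genes rose in Alport vehicle, by unequal amounts from 3.64-fold for Col6a1 to 69.7-fold for Col3a1. Because they were picked for that difference in sequence, the contrast between them follows from the choice. Each line gives the 250 bases before the annotated start, from the RefSeq table of build GRCm38.p6, which had windows for 7 of the 10 members. Col1a1, Col5a2 and Col14a1 have no entry there. Capitals mark matches, on either strand and counting overlapping ones, to CCAAT (the CCAAT box), GGGCGG (the GC box), TATAAA (the TATA box), TGANTCA (the AP-1 element), CAGACA (a Smad-binding element) and GGAATG (the TEAD element). Col1a2 is printed from chr6:4505368-4505617 on the plus strand, Col3a1 from chr1:45311288-45311537 on the plus strand, and Col6a1 from chr10:76726045-76726294 on the minus strand.
Col1a2: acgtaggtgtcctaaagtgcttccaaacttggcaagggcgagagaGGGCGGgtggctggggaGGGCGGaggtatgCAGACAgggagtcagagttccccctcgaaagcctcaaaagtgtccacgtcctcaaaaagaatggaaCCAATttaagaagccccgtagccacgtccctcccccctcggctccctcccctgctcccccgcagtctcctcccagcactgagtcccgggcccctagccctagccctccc
Col3a1: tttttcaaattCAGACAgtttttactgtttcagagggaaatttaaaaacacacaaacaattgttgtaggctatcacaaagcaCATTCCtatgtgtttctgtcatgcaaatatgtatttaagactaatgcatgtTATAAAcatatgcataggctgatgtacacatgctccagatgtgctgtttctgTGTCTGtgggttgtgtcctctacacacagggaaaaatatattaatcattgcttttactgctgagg
Col6a1: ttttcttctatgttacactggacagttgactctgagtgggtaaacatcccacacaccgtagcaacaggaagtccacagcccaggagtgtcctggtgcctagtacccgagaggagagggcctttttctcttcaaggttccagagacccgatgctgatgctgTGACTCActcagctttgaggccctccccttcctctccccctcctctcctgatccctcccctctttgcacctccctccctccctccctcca
The Col1a2 window held a CCAAT match beginning 109 bases before the start, GGGCGG matches at 205 and 188 and a CAGACA match at 175. The Col3a1 window had none of the GC boxes and instead held TATAAA at 117, CAGACA at 239 and 65 and GGAATG at 168. The only match in the Col6a1 window was TGANTCA at 90. Base composition also set them apart, with 62.0% G and C for Col1a2, 56.0% for Col6a1 and 35.2% for Col3a1, beside a median of 52.4% over all windows. No motif was shared by all 7 members with a window: CCAAT was in 1 of 7, GGGCGG in 3, TATAAA in 1, TGANTCA in 1, CAGACA in 3 and GGAATG in 2. A member counts where any of its windows holds the motif, and Col6a2 had 2 windows, which makes 8 windows in all. Over all 32851 windows of that length the shares were 33.8%, 32.7%, 12.4%, 6.75%, 17.1% and 12.6%. These matches describe letters in a window and not binding. By position, Col3a1 and Col5a2 are neighbours on chromosome 1 and Col6a1 and Col6a2 on chromosome 10, each pair with 0 protein-coding genes between them.

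Across the array, samples of a group correlated at r = 0.990 to 0.994. Kidney identity was plain in every sample, with the proximal tubule phosphate carrier Slc34a1 at 18.40 to 19.19, uromodulin Umod of the thick ascending limb at 18.51 to 18.94 and the podocyte gene Nphs1 at 8.90 to 9.66, all log2 signals. Col4a5, the gene carrying the nonsense allele, read 5.06, 5.83 and 5.40 in wild type and 4.44, 4.13 and 4.97 in Alport vehicle, a low signal that was 0.92 ± 0.23 (SE) lower on the log2 scale (limma adjusted p = 0.0116). That call was lost without wild type sample 2 (adjusted p = 0.0663) or Alport vehicle sample 2 (adjusted p = 0.0519). Alport vehicle sample 3 stood apart in markers of other cell types: the summed urothelial signal (log2) was 10.03 there and 7.74 to 8.80 in the other 11 samples, the adipocyte sum 7.63 against 6.15 to 6.84, and the T cell sum 8.83 against 7.31 to 8.30. It was also the highest sample for the macrophage sum (14.61 against 10.85 to 13.85) and the fibroblast and myofibroblast sum (15.96 against 11.75 to 15.55). By less it was highest for the pericyte and smooth muscle sum (12.68 against at most 12.58) and the endothelial sum (14.35 against at most 14.18). Its proximal tubule, podocyte, skeletal muscle and cartilage and bone sums were not the highest. The part of those cell types in that sample's collagen values was not tested. All signals below are log2 values as deposited, a fold is 2 to the power of the log2 difference, and a gene is said to have risen or fallen where its limma p, adjusted over all 22206 probe sets, was under 0.05. In bulk tissue fewer cells of a type and less RNA per cell cannot be told apart. The number of arrays, 3 a group, limits the precision of every value, and the median SE of a difference between Alport vehicle and wild type was 0.198. Signals of different probe sets are otherwise not set against each other as levels. They are combined only in marker sums, in chain differences within a sample and in calling a gene dim or bright.

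All 10 collagens rose in Alport kidneys given vehicle, from 1.98-fold for Col14a1 to 69.7-fold for Col3a1, and in none did the 3 Alport vehicle samples overlap the 3 wild type samples. Of all probe sets, 16.1% changed and 8.43% rose in this comparison, and 14.2% were higher without overlap. The median log2 difference of the 10 was 1.97, beside -0.03 over all probe sets. The 10 were chosen with earlier results of these data known, so these shares serve as description. The comparison asks what the COL4A5 defect, untreated at 16 weeks, went with in the interstitial matrix.

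Col3a1, which encodes the chain of type III collagen, read 6.81, 6.89 and 6.43 in wild type and 12.87, 12.83 and 12.80 in Alport vehicle. The Alport samples lay close together and far above every wild type sample. Its rise of 6.12 ± 0.31 (limma adjusted p = 1.04e-08) ranked 5 from the highest of all 22206 differences. Col1a1 and Col1a2 encode the chains of type I collagen. Col1a1 read 5.42, 5.78 and 5.52 in wild type and 10.71, 11.01 and 11.21 in Alport vehicle, a rise of 5.40 ± 0.38 or 42.3-fold (adjusted p = 2.5e-07). Col1a2 read 5.92, 7.16 and 6.43 against 11.19, 11.34 and 11.46, a rise of 4.83 ± 0.31 or 28.4-fold (adjusted p = 1.62e-07). The wild type samples of Col1a2 were spread more widely than its Alport samples, with sample 2 the highest. These 3 genes had ranks 5, 9 and 12 and stood apart from the other 7, whose largest rise, of Col15a1, ranked 179.

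The regulatory fibrillar chains Col5a1 and Col5a2 rose less and from a low signal. Col5a1 read 3.29, 3.34 and 3.13 in wild type and 4.26, 4.07 and 5.33 in Alport vehicle, a rise of 1.30 ± 0.28 (2.46-fold, limma adjusted p = 0.00378). Its signal lay below the lower quartile of the sample in 10 of 12 samples, so its differences rest on dim values. Col5a2 read 3.74, 4.54 and 4.33 against 5.66, 5.30 and 6.72, a rise of 1.69 ± 0.30 (3.23-fold, adjusted p = 0.000956). In both, Alport vehicle sample 3 stood highest. Without it the rise was 0.91 for Col5a1 (1.88-fold, adjusted p = 0.0147) and 1.28 for Col5a2 (2.42-fold, adjusted p = 0.00313).

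The 3 type VI chains rose by similar amounts. Col6a1 went from 6.65, 6.55 and 6.05 in wild type to 8.48, 7.96 and 8.40 in Alport vehicle, a difference of 1.86 ± 0.22 (3.64-fold, limma adjusted p = 3.36e-05). For Col6a2 the values were 5.96, 6.40 and 6.21 against 8.30, 8.66 and 7.85, a difference of 2.08 ± 0.27 (4.23-fold, adjusted p = 6.08e-05). Col6a3, the longest chain, read 6.83, 7.98 and 7.66 against 8.94, 9.26 and 9.03, a difference of 1.59 ± 0.25 (adjusted p = 0.000353). Wild type sample 1 was low for Col6a3, while its Alport samples lay close together.

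Col14a1 had the smallest rise of the 10. It read 6.51, 6.77 and 6.81 in wild type and 8.09, 7.42 and 7.54 in Alport vehicle, a difference of 0.99 ± 0.22 (limma adjusted p = 0.00482). Col15a1 read 5.44, 6.75 and 5.43 against 8.29, 7.96 and 8.32, a difference of 2.32 ± 0.37 (4.98-fold, adjusted p = 0.000383). Its wild type sample 2 was well above the other two but below every Alport sample. In the alternatives that use adjusted p, the calls of all 10 held wherever a gene was tested, with adjusted p between 5.6e-09 and 0.0314. By the rule of an unadjusted p with a 2-fold change, 9 were called and Col14a1, at 1.98-fold, was not.

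**Figure D1:**
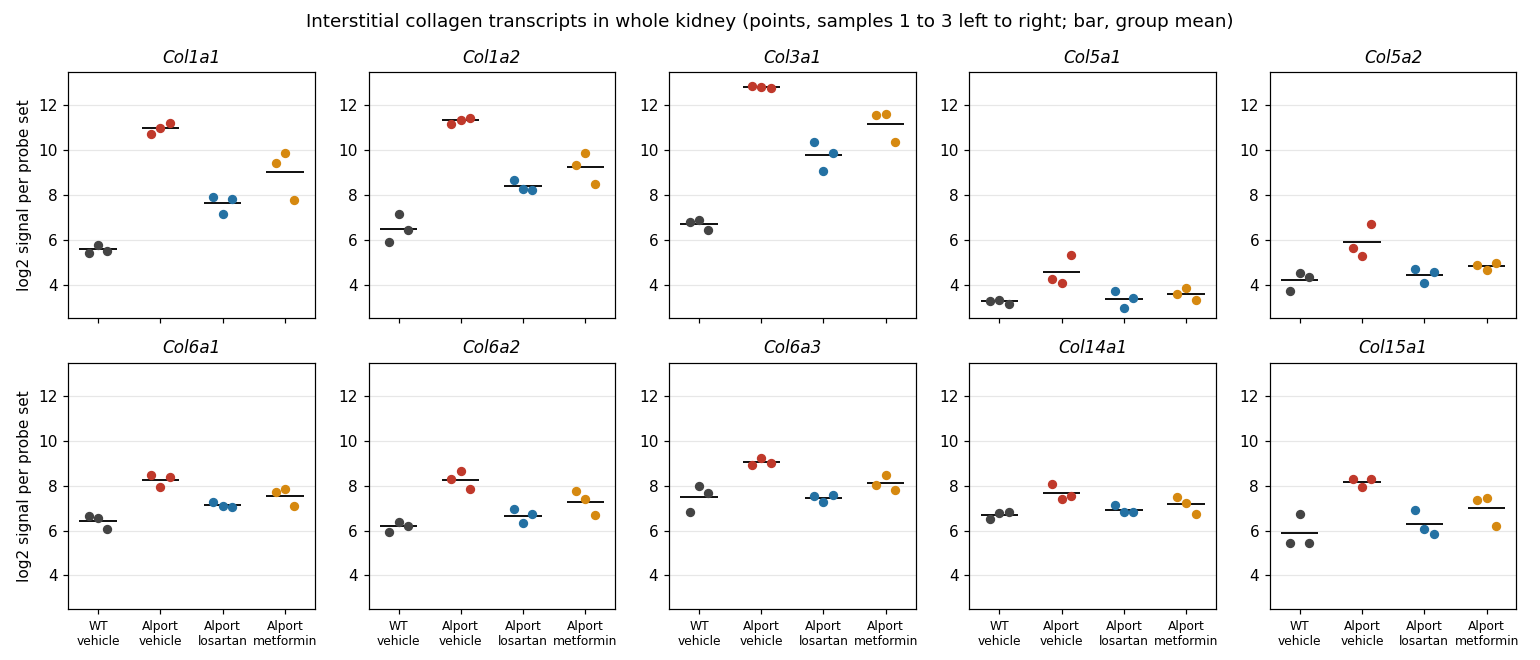
Log2 signal (y axis) of the 10 collagens in each sample of the 4 groups (x axis), with points for samples 1 to 3 from left to right and a bar at the group mean. Alport vehicle is the highest group in each panel, and the type I and III genes cover the widest range, as with Col3a1 from 6.43 to 12.87.

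Losartan lowered all 10 against Alport vehicle, and again no member had overlapping groups. Of all probe sets, 7.9% changed, 4.11% fell and 11.3% were lower without overlap. The median difference of the 10 was -1.60, beside 0.01 over all. This comparison uses the same Alport vehicle samples as the one against wild type, so the directions of both are not independent.

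Under losartan Col1a1 read 7.92, 7.16 and 7.82, every sample far below the lowest Alport vehicle value. It fell by 3.34 ± 0.38 (10.1-fold, limma adjusted p = 0.000254), the difference ranked 2 from the lowest of all 22206. Col3a1 read 10.35, 9.07 and 9.90 and fell by 3.06 ± 0.31 (8.34-fold), at rank 3. Col1a2 read 8.67, 8.27 and 8.22 and fell by 2.94 ± 0.31 (7.69-fold), at rank 7. All 3 had an adjusted p of 0.000254, and for Col3a1 losartan sample 2 was the low value.

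Col5a1 read 3.74, 2.97 and 3.39 with losartan and fell by 1.19 ± 0.28 (limma adjusted p = 0.0159). Col5a2 read 4.70, 4.06 and 4.58 and fell by 1.45 ± 0.30 (adjusted p = 0.00827). Both type V calls depended on single samples. Col5a1 did not pass without Alport vehicle sample 3 (adjusted p = 0.0545) or losartan sample 2 (adjusted p = 0.0911), nor Col5a2 without losartan sample 2 (adjusted p = 0.0527). Among the type VI chains, Col6a1 read 7.29, 7.08 and 7.04 and fell by 1.14 ± 0.22 (adjusted p = 0.00569). Col6a2 read 6.95, 6.34 and 6.73 and fell by 1.60 ± 0.27 (adjusted p = 0.00217), and Col6a3 read 7.56, 7.27 and 7.57 and fell by 1.61 ± 0.25 (adjusted p = 0.00144). The losartan samples of each type VI chain all lay below the Alport vehicle samples.

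For Col15a1 the losartan values were 6.92, 6.07 and 5.84, and it fell by 1.91 ± 0.37 (limma adjusted p = 0.0056). Col14a1 read 7.15, 6.82 and 6.82, a fall of 0.75 ± 0.22 that only just passed (adjusted p = 0.0442). Its call was lost after centring each sample on its median (adjusted p = 0.0643), after quantile normalization (adjusted p = 0.0597) and in a fit of only these groups (adjusted p = 0.0619). It was also lost without Alport vehicle sample 1 (adjusted p = 0.208) or 3 (adjusted p = 0.0648), or losartan sample 2 (adjusted p = 0.155) or 3 (adjusted p = 0.136).

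Metformin lowered 5 of the 10 against Alport vehicle, namely Col1a1, Col1a2, Col3a1, Col6a2 and Col6a3. Of all probe sets, 4.94% changed and 2.27% fell. The other 5 had lower means as well, by 0.52 to 1.18, and 9 of the 10, all except Col14a1, had no overlap with Alport vehicle, beside 9.88% of all probe sets. The median difference of the 10 was -1.02, beside -0.01 over all.

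Col1a2 fell the most with metformin. It read 9.36, 9.88 and 8.50, a fall of 2.08 ± 0.31 (4.24-fold, limma adjusted p = 0.00234). Col1a1 read 9.45, 9.87 and 7.79, a fall of 1.94 ± 0.38 (3.84-fold, adjusted p = 0.00897), and metformin sample 3 stood far below the other two. Without that sample the fall was 1.32 (2.49-fold, adjusted p = 0.0199). Col3a1 read 11.57, 11.60 and 10.39 and fell by 1.65 ± 0.31 (3.13-fold, adjusted p = 0.00821), with the same sample low.

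Of the type VI chains, Col6a2 read 7.76, 7.40 and 6.68 with metformin and fell by 0.99 ± 0.27 (limma adjusted p = 0.0428). Col6a3 read 8.02, 8.48 and 7.83 and fell by 0.97 ± 0.25 (adjusted p = 0.0373). Neither call was firm. Col6a2 did not pass without Alport vehicle sample 1 (adjusted p = 0.126) or 2 (adjusted p = 0.119), or metformin sample 2 (adjusted p = 0.0793) or 3 (adjusted p = 0.202). Col6a3 did not pass without Alport vehicle sample 1 (adjusted p = 0.0836), 2 (adjusted p = 0.0847) or 3 (adjusted p = 0.0734), or metformin sample 1 (adjusted p = 0.0912) or 3 (adjusted p = 0.159). Col6a2 also lost its call after centring (adjusted p = 0.0528) and in a fit of only these groups (adjusted p = 0.109). With array weights 3 members were called, which left the type I and III genes. Leaving out Alport vehicle sample 1, or metformin sample 3, likewise left 3.

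Col6a1 read 7.74, 7.84 and 7.10 with metformin, a difference of -0.72 ± 0.22 (limma adjusted p = 0.076). Col5a1 read 3.58, 3.84 and 3.30 (-0.98 ± 0.28, adjusted p = 0.0539), and Col5a2 read 4.86, 4.67 and 4.97 (-1.06 ± 0.30, adjusted p = 0.0542). With a trended robust prior Col5a1 (adjusted p = 0.0354) and Col5a2 (adjusted p = 0.0405) passed. All 3 of these passed without Alport vehicle sample 2, at adjusted p = 0.0414, 0.0212 and 0.0158. Col15a1 read 7.37, 7.44 and 6.22 (-1.18 ± 0.37, adjusted p = 0.0799) and Col14a1 7.50, 7.25 and 6.75 (-0.52 ± 0.22, adjusted p = 0.206), the latter overlapping the Alport vehicle samples.

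**Figure D2:**
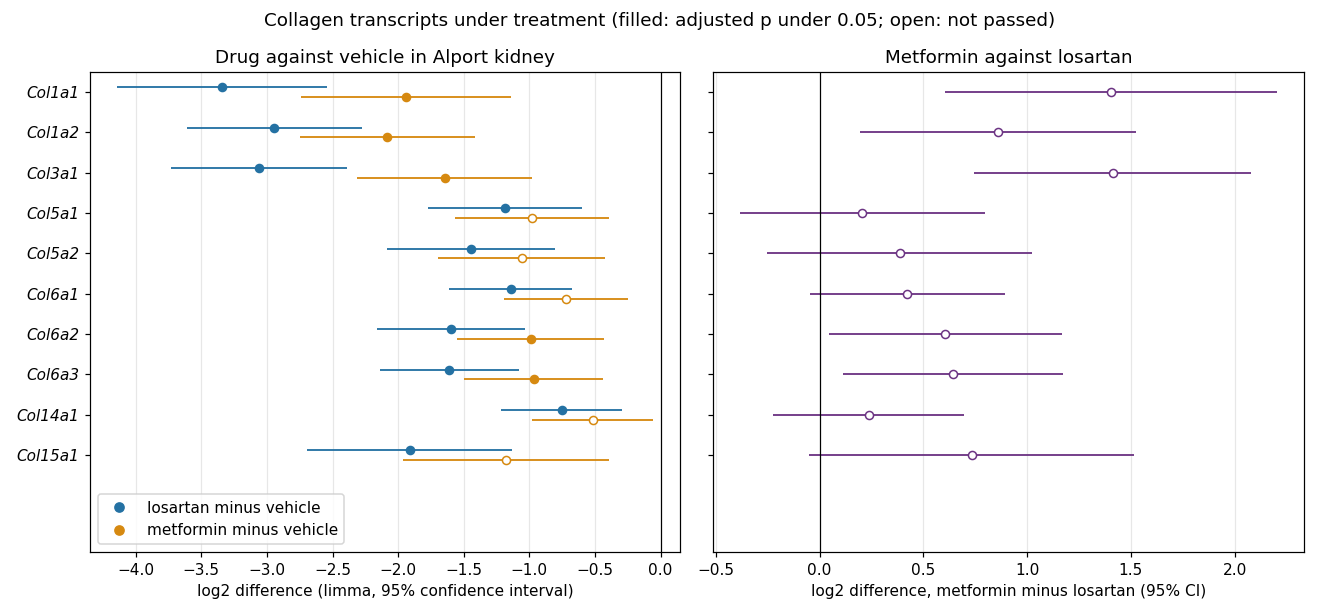
Log2 differences (x axis) of the 10 collagens (y axis) with 95% confidence intervals from limma, for each drug against Alport vehicle (left) and for metformin against losartan (right). Filled points passed at adjusted p under 0.05: all 10 with losartan, 5 with metformin and 0 between the drugs.

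The drugs were also compared directly, since a call with losartan and none with metformin does not show that they differ. The metformin group had the higher mean for all 10, by 0.21 for Col5a1 to 1.41 for Col3a1, and limma called 0 of the 10, while 5 had an unadjusted p under 0.05 (Col1a1, Col1a2, Col3a1, Col6a2 and Col6a3). Over all 22206 probe sets 0.045% were called and 8.37% had such a p. The 95% interval of metformin minus losartan ran from 0.75 to 2.08 for Col3a1 (adjusted p = 0.15), from 0.60 to 2.20 for Col1a1 (adjusted p = 0.298) and from 0.19 to 1.53 for Col1a2 (adjusted p = 0.471). Those of the 7 other genes covered smaller differences, and Col5a1 (-0.38 to 0.80), Col5a2 (-0.25 to 1.02), Col6a1 (-0.05 to 0.89), Col14a1 (-0.22 to 0.70) and Col15a1 (-0.05 to 1.52) included 0. Only Col3a1 and Col6a3 had metformin samples all above the losartan samples, beside 5.77% of all probe sets. Without metformin sample 3, Col1a1 passed at 2.03 (adjusted p = 0.00181) and Col3a1 at 1.81 (adjusted p = 0.00931). The drugs were given at different concentrations, so these are differences between the regimens.

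Set against wild type, losartan kidneys were still higher in the type I and III genes and in none of the other 7 by the test. Col3a1 was 3.06 ± 0.31 above wild type (8.36-fold, limma adjusted p = 0.000125), Col1a1 2.06 ± 0.38 (4.17-fold, adjusted p = 0.0221) and Col1a2 1.88 ± 0.31 (3.69-fold, adjusted p = 0.0114). Of all probe sets 0.549% were called here and 0.401% were called higher. Leaving out 1 sample kept Col3a1 called in each case. Col1a1 lost its call without wild type sample 1 (adjusted p = 0.0754), 2 (adjusted p = 0.0716) or 3 (adjusted p = 0.123), or losartan sample 1 (adjusted p = 0.111) or 3 (adjusted p = 0.0939), and Col1a2 without wild type sample 1 (adjusted p = 0.0568) or 3 (adjusted p = 0.0699) or losartan sample 1 (adjusted p = 0.0716). The count of called members was then 1 without wild type sample 1 or 3 or losartan sample 1. The 7 others differed from wild type by -0.02 (Col6a3) to 0.72 (Col6a1, interval 0.25 to 1.19, adjusted p = 0.2).

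Metformin kidneys were higher than wild type in 5 of the 10. Col3a1 was 4.48 ± 0.31 above wild type (22.3-fold, limma adjusted p = 2.97e-06), Col1a1 3.46 ± 0.38 (11.0-fold, adjusted p = 8.86e-05) and Col1a2 2.74 ± 0.31 (6.70-fold, adjusted p = 0.000152). Without metformin sample 3 the Col1a1 difference was 4.09 (17.0-fold). Col6a1 was 1.14 ± 0.22 higher (adjusted p = 0.00819) and Col6a2 1.09 ± 0.27 (adjusted p = 0.0293), beside 4.18% of all probe sets called and 2.7% called higher. Col6a1 did not pass without wild type sample 3 (adjusted p = 0.0554). Col6a2 did not pass without wild type sample 1 (adjusted p = 0.103), 2 (adjusted p = 0.0534) or 3 (adjusted p = 0.0919), or metformin sample 1 (adjusted p = 0.155) or 2 (adjusted p = 0.103), so 3 members were called without wild type sample 3. Col15a1, at 1.14 ± 0.37 (adjusted p = 0.101), passed without wild type sample 2 (1.57, adjusted p = 0.0284) or metformin sample 3 (1.53, adjusted p = 0.0212).

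Expressed as the share of the log2 rise of Alport vehicle over wild type that remained, losartan left -1.47% (Col6a3) to 50.0% (Col3a1), with a median of 23.4%. With metformin 24.6% (Col5a1) to 73.1% (Col3a1) remained, with a median of 50.7%. Col3a1 thus kept the highest share under each drug. The shares use the same wild type and Alport vehicle samples for both drugs and were not tested. For 9 of the 10 the group means ran from wild type through losartan and metformin to Alport vehicle, and for Col6a3 the losartan mean lay 0.02 below wild type. Of neighbours in that order, the test did not separate losartan from wild type for 7 genes, metformin from losartan for any of the 10, or Alport vehicle from metformin for 5.

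**Figure D3:**
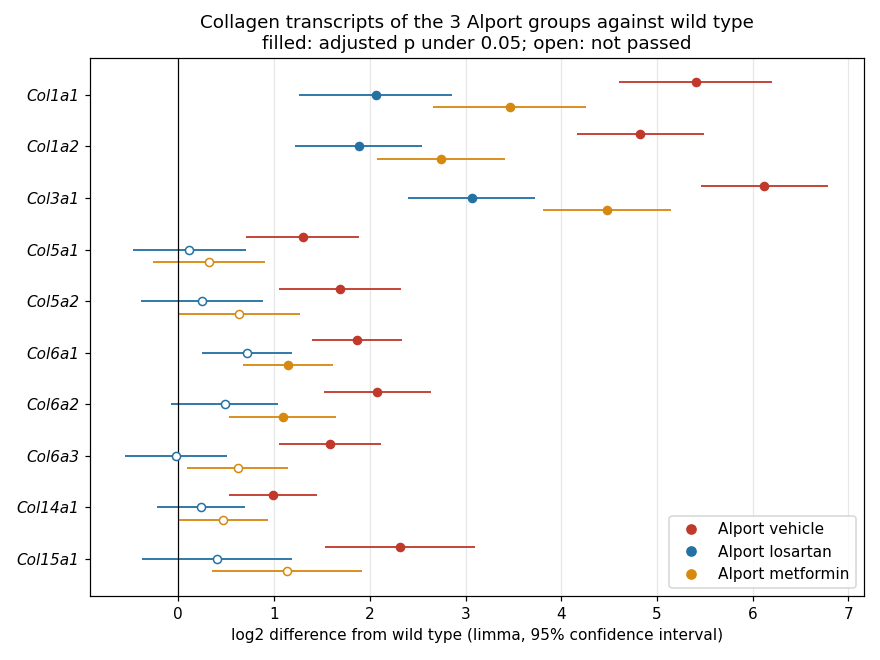
Log2 difference from wild type (x axis, limma with 95% confidence intervals) of each collagen (y axis) in Alport kidneys given vehicle, losartan or metformin. All 10 passed with vehicle (filled), 3 with losartan and 5 with metformin, and Col3a1 lies farthest right at 6.12, 3.06 and 4.48.

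In some samples, though not in all, most of the 10 genes lay on the same side of their group means. Metformin sample 3 was the lowest of its group for 9 of 10, all but Col5a2, with a mean deviation of -0.55 from the group means and -1.25 for Col1a1. Losartan sample 1 was the highest of its group for 9 and above the group mean for 10, by 0.32 on average. Losartan sample 2 was below the group mean for all 10, by 0.30 on average, and wild type sample 2 was above it for all 10, by 0.33. Alport vehicle samples deviated little on average (-0.03, -0.13 and 0.16), with 5, 4 and 6 of the 10 genes above their group means. In sample 3 Col5a1 and Col5a2 stood 0.78 and 0.83 above their means, while Col6a2 was at -0.42. What set these samples apart was not tested.

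**Figure D4:**
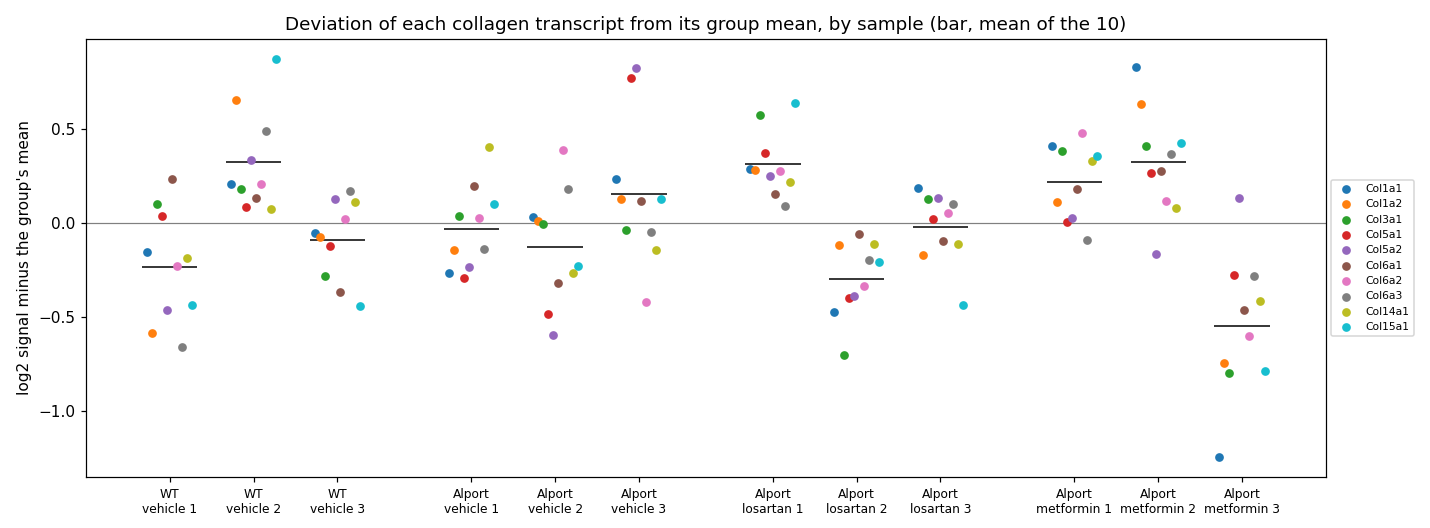
Deviation of each collagen's log2 signal from its group mean (y axis) in each of the 12 samples (x axis), with a point per gene and a bar at the mean of the 10. Metformin sample 3 has 9 of 10 points below 0 and a mean of -0.55, and losartan sample 1 and wild type sample 2 have all 10 above 0.

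Type I collagen is built from the products of Col1a1 and Col1a2, so the difference between their log2 signals in the same sample was followed. It was -0.50, -1.38 and -0.91 in wild type and -0.48, -0.33 and -0.25 in Alport vehicle. Under losartan it was -0.75, -1.11 and -0.40, and under metformin 0.09, -0.01 and -0.71. The Alport vehicle samples were all above the wild type samples, so Col1a1 rose by 0.58 more than Col1a2, with an exact permutation p of 0.1, the smallest that 3 against 3 samples allow. The difference Col5a1 minus Col5a2 was 0.39 lower in Alport vehicle than in wild type and 0.26 higher with losartan than with vehicle, each at the same exact p of 0.1. Of 16 such two-sided exact tests over Col1a1 and Col1a2, Col5a1 and Col5a2, Col6a1 and Col6a2, and Col6a3 and Col6a1 in 4 comparisons, the lowest Benjamini-Hochberg adjusted p was 0.457. No unequal change between chains of a type was shown by this exact test, which cannot go below 0.1 with 3 samples a group.

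Other collagens did not rise as a body. Of 6 other fibrillar collagens 0 were called by limma in Alport vehicle against wild type (1 at an unadjusted p under 0.05), of 7 short-chain and other beaded collagens 0 (1 at that level) and of 4 transmembrane collagens 0 (2 at that level). After centring each sample on its median 2 transmembrane collagens passed, and after quantile normalization 1, counting either direction. The median difference of these 4 genes was -0.20, below 0. Col13a1 read 6.24, 6.69 and 6.68 in wild type and 6.15, 6.33 and 5.62 in Alport vehicle. For Col25a1 the values were 4.47, 4.51 and 4.49 against 4.33, 3.93 and 4.10. Several genes of the fibrillar and short-chain lists read near or below the samples' lower quartiles of 4.18 to 4.25. A missing call there does not show a lack of response. Over the 12 samples Col5a3 read 3.33 to 4.42, Col2a1 3.51 to 4.32, Col10a1 3.03 to 3.76 and Col6a5 3.19 to 4.03. Others were brighter, such as Col11a2 at 6.94 to 7.61 and Col8a2 at 7.21 to 8.20. In the list of other fibril-associated and multiplexin collagens 1 of 8 measured rose, Col18a1, a multiplexin like Col15a1, from 11.33, 11.37 and 11.22 to 13.71, 13.20 and 13.30. Its rise was 2.10 ± 0.23 (limma adjusted p = 1.78e-05), and it fell by 1.59 ± 0.23 with losartan and by 1.01 ± 0.23 with metformin (adjusted p = 0.000941 and 0.0212). The metformin call was lost without Alport vehicle sample 1 (adjusted p = 0.105) or metformin sample 2 (adjusted p = 0.0516) or 3 (adjusted p = 0.104), and in a fit of only these groups (adjusted p = 0.0844). Col7a1, Col12a1 and Col21a1 of that list were not analysed here, because no probe set carried one of them as its single symbol. Col27a1, a fibrillar collagen of cartilage, was the only one of its list called in any of these comparisons: it rose with metformin from 4.66, 4.71 and 5.09 in Alport vehicle to 5.52, 6.09 and 5.84, by 1.00 ± 0.22 (adjusted p = 0.0187), a direction opposite to the interstitial genes. That call was lost without Alport vehicle sample 1 (adjusted p = 0.0849) or metformin sample 2 (adjusted p = 0.0771) or 3 (adjusted p = 0.0741).

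Type IV collagen, the network former of basement membranes, split by chain. The ubiquitous chains Col4a1 and Col4a2 rose in Alport vehicle by 1.52 ± 0.17 and 1.41 ± 0.25 (limma adjusted p = 1.68e-05 and 0.000867), while Col4a5 fell as given above and Col4a4, its partner in the mature filter, fell by 0.57 ± 0.19 (adjusted p = 0.0485). Col4a3, the brightest chain of the list, was not called. It read 13.76, 13.51 and 13.46 in wild type and 13.82, 13.42 and 13.45 in Alport vehicle. The Col4a4 call was lost without any 1 of the wild type samples or Alport vehicle sample 1 or 2 (adjusted p = 0.0513 to 0.182), after quantile normalization (adjusted p = 0.102) and in a fit of only these groups (adjusted p = 0.0683). With losartan Col4a1 fell by 0.84 ± 0.17 and Col4a2 by 1.24 ± 0.25 (adjusted p = 0.00684 for each), and with metformin 0 of the 6 chains were called (2 at an unadjusted p under 0.05).

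**Figure D5:**
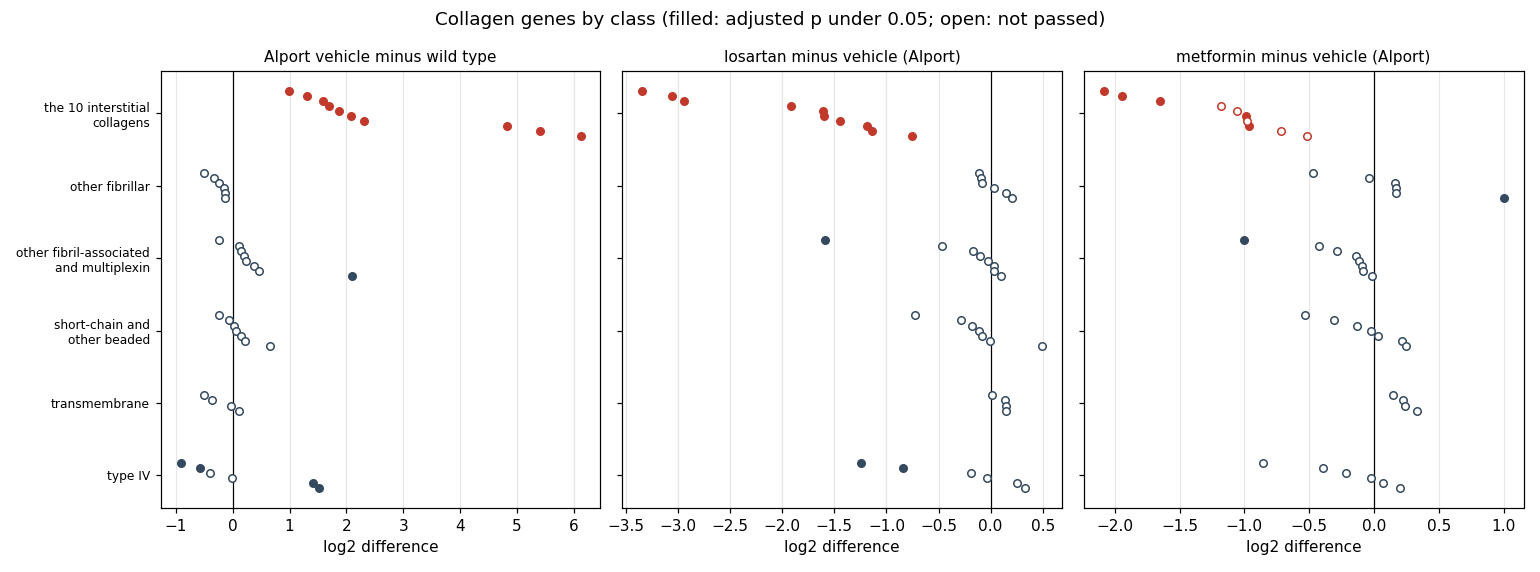
Log2 difference (x axis) of every measured collagen gene, grouped by class (y axis), for Alport vehicle against wild type, losartan against vehicle and metformin against vehicle. Several genes of the other fibrillar and short-chain classes had dim signals, where a change could be missed. The 10 genes and the classes were chosen with earlier results of these data known. Each point is a gene and filled points passed at adjusted p under 0.05: 10 of 10 interstitial genes in the first panel, beside 0 of 6 other fibrillar, 1 of 8 fibril-associated and multiplexin, 0 of 7 short-chain and beaded, 0 of 4 transmembrane and 4 of 6 type IV genes.

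The enzymes and chaperones that make collagen moved in part. Of 18 measured genes of folding, processing and cross-linking 8 rose and 0 fell in Alport vehicle, with a list median of 0.19. The rises were led by lysyl oxidase Lox, which cross-links fibrils, from 4.90, 5.32 and 5.24 to 9.31, 8.54 and 9.68 (4.02 ± 0.28, limma adjusted p = 2.47e-07). Its relative Loxl1 rose by 2.29 ± 0.20, the collagen chaperone Serpinh1 by 1.76 ± 0.22 and the enhancer of procollagen trimming Pcolce by 1.52 ± 0.18. P4hb, a subunit of prolyl hydroxylase and the brightest of the list, did not pass (-0.35 ± 0.18, adjusted p = 0.213). With losartan 6 of 18 fell, among them Lox by 2.28 ± 0.28 and Serpinh1 by 1.07 ± 0.22 (adjusted p = 0.000427 and 0.00881), and 1 rose. With metformin 4 fell, Lox by 1.61 ± 0.28 (adjusted p = 0.00504), and 1 rose. The gene that rose with each drug, named after its values were seen, was P4ha2, a catalytic subunit of prolyl hydroxylase. It rose by 0.61 with losartan and 0.92 with metformin. The first call was lost without Alport vehicle sample 1 (adjusted p = 0.202) or 3 (adjusted p = 0.118) or losartan sample 2 (adjusted p = 0.191) or 3 (adjusted p = 0.132), and the second without Alport vehicle sample 1 (adjusted p = 0.0524). The first was also lost with a trended robust prior (adjusted p = 0.0519) and in a fit of only these groups (adjusted p = 0.107). The total called with losartan, 7 of 18, was 4 without Alport vehicle sample 1 or 3 or losartan sample 2 or 3. The total with metformin, 5, was 2 without Alport vehicle sample 1 or metformin sample 3 and 3 without Alport vehicle sample 2.

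Of 12 measured genes for breaking down or taking up collagen, a list that includes inhibitors of breakdown, 8 rose and 1 fell in Alport vehicle, with a median of 2.22. The tissue inhibitor Timp1 rose from 3.54, 4.20 and 3.24 to 9.81, 8.67 and 9.02 (5.51 ± 0.46, limma adjusted p = 1.28e-06), the membrane collagenase Mmp14 by 3.65 ± 0.30 and the lysosomal collagenase Ctsk by 2.25 ± 0.19. The inhibitor Timp2 rose by 2.51 ± 0.24, and Timp3 was the one that fell, by 0.81 ± 0.16 (adjusted p = 0.00225). The other 3, named after their values were seen, were the neutrophil collagenase Mmp8 (0.37 ± 0.26, adjusted p = 0.399), the collagenase Mmp13 (-0.32 ± 0.30, adjusted p = 0.546) and the gelatinase Mmp9 (0.21 ± 0.21, adjusted p = 0.594), and none of them passed. Their signals were dim, at 3.62 to 5.01 for Mmp8, 4.02 to 5.51 for Mmp13 and 3.51 to 4.30 for Mmp9, so a change could be missed. Losartan lowered 8 of the 12 and metformin 6. Mmp14 fell by 2.42 ± 0.30 and 1.74 ± 0.30, while Timp1 fell by 2.99 ± 0.46 with losartan and was at -1.62 ± 0.46 with metformin (adjusted p = 0.052). In a fit of only the groups compared, 3 of the 12 were called with metformin. The same count of 3 came without Alport vehicle sample 1 or metformin sample 3.

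Among 7 measured collagen receptors 4 rose in Alport vehicle. The discoidin receptor Ddr2, which binds fibrillar collagen, rose by 2.86 ± 0.29 (limma adjusted p = 7.23e-06), and the integrin subunits Itga2 and Itgb1 by 1.22 ± 0.22 and 1.04 ± 0.18. Lair1, an inhibitory collagen receptor of leukocytes, rose by 0.90 ± 0.26 (adjusted p = 0.0232), a call lost without wild type sample 2 (adjusted p = 0.123) or Alport vehicle sample 3 (adjusted p = 0.119), or in a fit of only these groups (adjusted p = 0.0575). Only Ddr2 fell with either drug, by 1.71 ± 0.29 with losartan and 1.36 ± 0.29 with metformin (adjusted p = 0.00229 and 0.0134). Its metformin call was lost without Alport vehicle sample 1 (adjusted p = 0.0679) or metformin sample 2 (adjusted p = 0.0583) or 3 (adjusted p = 0.0664).

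TGF-beta is the best known inducer of these collagens. Of 12 measured genes of its axis 5 rose in Alport vehicle: the ligand Tgfb1 by 2.19 ± 0.29 (limma adjusted p = 8.47e-05), the receptor Tgfbr2 by 1.27 ± 0.21, the latent binding protein Ltbp2 by 2.63 ± 0.25, the target Ccn2 by 1.61 ± 0.22 and the receptor Tgfbr1 by 0.87 ± 0.22, a gene named after its values were seen whose call was lost without wild type sample 2 (adjusted p = 0.059). The signal carrier Smad4 did not pass (0.08 ± 0.18, adjusted p = 0.849). Losartan lowered 5 of the 12 and metformin 3. Ccn2 read 11.88, 12.13 and 12.84 in Alport vehicle, against 11.10, 10.93 and 10.59 under losartan and 10.81, 10.42 and 10.75 under metformin, falls of 1.41 ± 0.22 and 1.62 ± 0.22 (adjusted p = 0.00156 and 0.00143). Tgfb1 fell by 1.42 ± 0.29 and 1.23 ± 0.29 (adjusted p = 0.00777 and 0.0237), the metformin call being lost without any 1 of Alport vehicle samples 1 and 3 and metformin samples 2 and 3 (adjusted p = 0.0546 to 0.126) or in a fit of only these groups (adjusted p = 0.0804), and the losartan call without losartan sample 2 (adjusted p = 0.0507). Without losartan sample 2 the losartan count was 3. In metformin against losartan 0 genes were called in each of these lists.

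Markers of the cells that make interstitial collagen moved with the 10 genes. Of 8 measured fibroblast and myofibroblast markers 7 rose in Alport vehicle, 6 fell with losartan and 5 with metformin. The median differences of the 8 were 2.08, -1.43 and -1.46 in that order. Their summed signal (log2) was 11.7 to 12.3 in wild type, 15.3 to 16.0 in Alport kidneys on vehicle, 13.8 to 14.1 under losartan and 13.6 to 14.3 under metformin. Sums add linear signals, so the brightest genes, here Dcn and Acta2, make up most of this one. Decorin, Dcn, rose by 3.78 ± 0.22 and fell by 1.49 ± 0.22 with losartan and 1.53 ± 0.22 with metformin, and the myofibroblast actin Acta2 rose by 3.53 ± 0.32 and fell by 2.12 ± 0.32 and 2.04 ± 0.32. Between the drugs Dcn differed by -0.04 and Acta2 by 0.08, metformin minus losartan, and 0 of the 8 were called (1 at an unadjusted p under 0.05). Of 7 pericyte and smooth muscle markers 5 rose and their sum ran at 10.6 to 11.1 in wild type, 12.4 to 12.7 in Alport vehicle, 11.2 to 11.3 with losartan and 11.1 to 11.6 with metformin. One of them, Pdgfrb, rose by 2.04 ± 0.23.

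Other cell types moved too. Of 7 measured macrophage markers 6 rose, 5 fell with losartan and 1 with metformin. At an unadjusted limma p under 0.05 there were 7 with losartan and 4 with metformin, with median differences of -1.46 and -0.71. In metformin against losartan 0 of the 7 were called (2 at that level), so the drugs were not separated here. The summed signal was 10.9 in each wild type sample, 12.8 to 14.6 in Alport vehicle, 11.6 to 11.9 with losartan and 11.9 to 13.3 with metformin. The brightest gene in this sum was Csf1r in wild type and Lyz2 in Alport vehicle. All 8 proximal tubule markers fell, with sums of 20.2 in wild type and 19.4 to 19.6 in Alport vehicle. Of 6 urothelial markers 1 rose, Upk1b, whose call was lost without wild type sample 1 (adjusted p = 0.0762) or Alport vehicle sample 3 (adjusted p = 0.0749). In that Alport vehicle sample the urothelial genes Upk1a and Krt5 read 8.78 and 7.56, against at most 7.14 and 5.46 elsewhere, and the fat hormone Adipoq read 5.82, against at most 4.65. Of 5 T cell markers 2 rose, of 4 podocyte markers 1 rose, and of 6 endothelial markers 1 rose and 1 fell. Of 5 adipocyte, 5 skeletal muscle and 5 cartilage and bone markers 0 were called by limma (1, 1 and 0 at an unadjusted p under 0.05). The sums of those 3 lists reached at most 7.63, 7.75 and 6.78, the first in Alport vehicle sample 3. No list was summed to a level of 0. The part of any of these cell types in the collagen differences was not tested.

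The genes whose pattern over the 12 samples was most like the mean of the 10 were, by the highest Pearson r among non-members, Thbs1 (0.993), Fn1 (0.987), Ltbp2 (0.983), AI506816 (0.983), Flna (0.982) and Thbs2 (0.980), with Spearman rho between 0.958 and 0.979. The samples fall into 4 groups, so these values mostly restate the order of the group means, and they are a description with no test. Each member against the mean of the other 9 gave r from 0.821 (Col5a1) to 0.987 (Col1a2). Fibronectin, Fn1, an adhesive matrix protein, read 8.21, 8.30 and 8.12 in wild type, 12.50, 12.06 and 12.49 in Alport vehicle, 10.15, 9.68 and 9.85 under losartan and 11.21, 11.25 and 9.62 under metformin, where sample 3 was again the low one. Thrombospondin 1, Thbs1, read 9.51, 9.73 and 9.46 in wild type, 11.82, 11.61 and 11.57 in Alport vehicle, at most 10.43 with losartan, and 10.90, 11.08 and 10.31 with metformin. In both genes the metformin samples overlapped the losartan samples.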

How the data were processed

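Total RNA of 12 whole-kidney samples was labelled with biotin and hybridised to Clariom S arrays, per the labels' protocols. The deposited values are log2 signals per probe set. The tool was Transcriptome Analysis Console 4.0, per the submitters' processing notes. The normalization is not given in the sources used here. They were used as deposited, on 22206 probe sets. Of these, 19572 had a single gene symbol, updated from RefSeq through the Entrez identifier of the platform annotation. The other 2634 had no symbol or several and were left unnamed.

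A mean per group was fitted to all 12 samples with limma 3.58.1 in R 4.3.3 (lmFit and eBayes, 8 residual degrees of freedom, no replicate block), and p-values were adjusted by Benjamini-Hochberg over all probe sets of each of 6 comparisons, with calls at 0.05. The fit was tested on simulated data. Where a symbol has several probe sets the one with the highest mean is used. Text names all 10 members, the 6 non-members most like the members, and reference genes. From the other lists, the genes open to naming were those with the smallest p in Alport vehicle against wild type (at most 4 a list) and the one with the highest mean. Only part of these are named, and some lists have none named. A few further genes are marked as named after their values were seen. The members and lists were chosen with earlier results of these data known. Same-numbered samples of different groups deviated together at r = -0.140 to 0.0776, and 0 of 18 pairs exceeded 0.1, so the numbers were not used as pairs. Alternatives were median centring, quantile normalization, leaving out the third of probe sets with the lowest means, a trended robust prior, array weights, fits of only the groups compared, a replicate block, an unadjusted rule with a 2-fold change, and leaving out each sample. Within-sample chain differences were compared by exact permutation tests (SciPy 1.17.1).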

Additional observations from a re-analysis of the deposited data

How the results depend on the processing

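No member's difference changed direction in the alternatives that kept all samples: of 414 such values with an adjusted p 403 stayed on the same side of the threshold, 4 gained a call and 7 lost it. Of 360 values with 1 sample left out 319 stayed, 7 gained a call, 30 lost it and 4 reversed, all against wild type under losartan: Col6a3 to 0.22 without wild type sample 2, 0.06 without wild type sample 3 and 0.08 without losartan sample 2 (range -0.35 to 0.22), and Col5a1 to -0.073 without losartan sample 1 (range -0.073 to 0.31). The members called for metformin against vehicle, 5 as reported, numbered 3 with array weights, 4 after centring or in a fit of only the groups compared, 5 after quantile normalization or by the unadjusted 2-fold rule, 6 without the lowest signals and 7 with the trended prior. Between the drugs they numbered 2 by the 2-fold rule and 0 in the other alternatives that kept all samples. That rule gave 9 for Alport vehicle against wild type and 9 for losartan against vehicle, Col14a1 being under 2-fold in each. With 1 sample left out they numbered 10 for Alport vehicle against wild type, 7 to 10 for losartan and 3 to 6 for metformin against vehicle, 0 to 2 between the drugs, and 1 to 3 and 3 to 6 for losartan and metformin against wild type. Same-numbered samples did not deviate together, so the replicate block has no pairing to rest on. With it 10, 10, 6, 0, 3 and 5 members were called in that order, Col5a2 passed with metformin (adjusted p = 0.0465), and Col4a4 (adjusted p = 0.0735) and P4ha2 with losartan (adjusted p = 0.066) did not. Probe sets called, 3582, 1755, 1096, 10, 122 and 928 in that order, were 1565, 799, 511, 102, 239 and 542 by the unadjusted 2-fold rule. With array weights they were 195 for losartan against wild type and 17 between the drugs, and in fits of only the groups compared 285 and 3 for the same comparisons and 410 for metformin against vehicle. With 1 sample left out they ran from 2549 to 3756, 716 to 2073, 266 to 1320, 5 to 91, 37 to 62 and 346 to 1019. Centring moved the median of all probe sets in Alport vehicle against wild type from -0.03 to -0.17 and the split of calls from 1871 higher and 1711 lower to 1451 and 2842. The splits went from 842 and 913 to 1238 and 724 with losartan and from 592 and 504 to 827 and 381 with metformin, both against vehicle, and from 599 and 329 to 513 and 486 for metformin against wild type. The list counts that follow take calls in either direction. List counts against wild type became 2 (centred) or 1 (quantile) for transmembrane collagens, 1 for short-chain collagens (lowest signals left out, only the groups compared, or the block) and 2 for type IV (2-fold rule). With losartan they became 2 for receptors (quantile, lowest signals left out, trended prior), 1 for short-chain collagens (lowest signals left out, block), and by the 2-fold rule 1 for type IV and 4 for folding. With metformin receptors had 2 (centred, quantile, lowest signals left out) or 3 (trended prior), type IV 1 (lowest signals left out, trended prior), fibril-associated 0 and breakdown 3 (only the groups compared), and other fibrillar 0 and folding 2 (2-fold rule). With 1 sample left out the lists against wild type, with losartan and with metformin had 5 to 7, 3 to 5 and 2 to 4 for TGF-beta, 9, 8 to 9 and 3 to 7 for breakdown, 7 to 8, 4 to 6 and 2 to 7 for folding, 3 to 4, 1 and 0 to 2 for receptors, 1, 1 and 0 to 1 for fibril-associated, 0 to 1, 0 and 0 to 1 for other fibrillar, 0 to 1, 0 to 1 and 0 for short-chain, 0 to 1, 0 and 0 for transmembrane, and 2 to 4, 2 and 0 to 1 for type IV. Chain differences reversed without 1 sample in 7 of 96 cases. Col6a1 minus Col6a2 against wild type went to 0.015 on leaving out wild type sample 1, or 0.14 on leaving out Alport vehicle sample 2 (range -0.49 to 0.14). Without the latter, with metformin against vehicle, it went to -0.085 (range -0.085 to 0.54) and Col6a3 minus Col6a1 to 0.005 (range -0.42 to 0.005). Col1a1 minus Col1a2 went to -0.0067 without metformin sample 1 (range -0.0067 to 0.39), and Col5a1 minus Col5a2 to -0.14 without metformin sample 2 (range -0.14 to 0.29) and, between the drugs, to 0.025 without metformin sample 3 (range -0.40 to 0.025). The cause of these moves was not tested. Averaging probe sets of a symbol was not run because each member has 1, and leaving out the lowest signals drops Col5a1, whose dim signal limits it, to leave 9 members tested.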
